A study of Mus musculus with 3 samples.

Results

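Genes of cholesterol synthesis, SREBP control, uptake, storage, transport and LXR-driven efflux were read on Affymetrix mouse genome arrays in the mouse mesenchymal line C3H10T1/2. The members were 36 named genes, each taken through the probe sets that carry its symbol and no other. Of these, 33 had such a probe set, 70 probe sets in all, against 18193 genes with one on the arrays. Acat2, Soat1 and Nr1h2 had none in the name table used here and were not analysed here. RNA came from untransfected C3H10T1/2 cells, from C3H10T1/2 cells overexpressing the fluorescent protein Venus, and from C3H10T1/2 cells overexpressing Venus-Mkx, where Mkx is the homeobox protein Mohawk. Both transgenes were delivered by retrovirus into the same cell line, with puromycin in the medium, and all cells were grown in serum-containing medium. For the cells read on the arrays, no source used here names 1 clone or a pool. Each condition was read on 1 array, so no difference given here has a replicate check, no p-value is given, and the transgene and the culture it was read in cannot be told apart.

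Mammalian cells build cholesterol from acetyl-CoA through mevalonate, farnesyl diphosphate, squalene and lanosterol. The transcription factor SREBP2, encoded by Srebf2, switches on nearly all genes of this pathway. When sterols are scarce, Scap escorts SREBP from the endoplasmic reticulum to the Golgi, where the proteases encoded by Mbtps1 and Mbtps2 release its active part, and when sterols are plentiful, Insig proteins hold Scap and SREBP back. The nuclear receptors LXRα and LXRβ sense oxysterols and switch on the cholesterol exporters Abca1 and Abcg1, together with Mylip, a ubiquitin ligase that lowers lipoprotein receptors at the cell surface. Mesenchymal cells in serum both make cholesterol and take it up from lipoproteins.

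Mkx itself was read by 1 probe set, with log2 values of 6.88 in C3H10T1/2, 7.43 in Venus and 2.71 with Venus-Mkx. That is lower, not higher, in the cells named for it, so the third array is named only by its label here. The position of this probe set relative to the transferred coding sequence was not determined. The mesenchymal markers Col1a1, Col1a2, Vim, Thy1, Pdgfra, Pdgfrb, S100a4 and Fn1 were above the level floor on all 3 arrays. Of these, Col1a1, with values of 11.52, 11.88 and 13.22, and Thy1 were counted as higher, 0 as lower and 6 as neither. On the array labelled Venus-Mkx, 5 of the 8 lay below Venus, furthest Pdgfra, with values of 10.15, 9.84 and 9.14. This floor, 4.34, is the median of all deposited log2 values, and the 11169 genes that reached it on at least 1 array are called measured. Readings under it are taken as background. Higher and lower refer, for counts, to genes at least 2-fold apart, or 1 on the log2 scale, from C3H10T1/2 and from Venus alike. By this rule 6.82% of all measured genes were higher and 5.34% were lower.

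Promoter sequence was looked at for the members with a RefSeq promoter window (build GRCm38.p6), which runs from 250 bases before to 50 bases after a start site. A window was held for 30 of the 36 members. The stretches shown are 60 bases each, lie wholly before the start site and are written 5′ to 3′ on the gene's strand, with matched motifs in capitals. Hmgcs1 is shown as the only one of the 30 members with a window that held the exact letters of the sterol element named below. The others carry main differences described below: Idi1 and Msmo1 for synthesis, Srebf2 and Insig1 for SREBP control, and Abca1 for efflux. Ebp is the synthesis gene that went the other way. Fdps, with the largest difference in synthesis, had no window. Hmgcs1 lies at chr13:119690188-119690247 (+), Idi1 at chr13:8885546-8885605 (+), Msmo1 at chr8:64733602-64733661 (-), Srebf2 at chr15:82147106-82147165 (+), Insig1 at chr5:28071168-28071227 (+), Ebp at chrX:8193536-8193595 (-) and Abca1 at chr4:53160010-53160069 (-).
Hmgcs1: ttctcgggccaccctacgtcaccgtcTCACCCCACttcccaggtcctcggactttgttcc
Idi1: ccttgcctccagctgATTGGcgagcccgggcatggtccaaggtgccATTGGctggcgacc
Msmo1: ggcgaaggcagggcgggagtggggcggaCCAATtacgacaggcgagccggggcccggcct
Srebf2: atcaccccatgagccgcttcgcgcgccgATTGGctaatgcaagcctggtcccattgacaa
Insig1: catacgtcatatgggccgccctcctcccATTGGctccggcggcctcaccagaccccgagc
Ebp: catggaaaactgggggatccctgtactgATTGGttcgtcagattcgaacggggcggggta
Abca1: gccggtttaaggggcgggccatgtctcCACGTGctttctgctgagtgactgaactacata

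The capitals mark the sterol regulatory element TCACNCCAC in Hmgcs1, the CCAAT box, read on its other strand as ATTGG, in Idi1, Msmo1, Srebf2, Insig1 and Ebp, and the E-box CACGTG in Abca1. CCAAT boxes are bound by NF-Y, a factor known to act together with SREBP. All motifs were searched on both strands, and none of the letters of these motifs overlap in the stretches shown. The letters CCAAT were found for 14 of 15 synthesis genes with a window, for 4 of 7 SREBP control genes, for 4 of 4 genes of uptake, storage and transport and for 0 of 4 LXR and efflux genes. Over all 32851 promoter windows 37.4% held them, and over 27025 genes, some with several windows, 41.1% did. Among synthesis genes the one without was Acat2, which had no value on the arrays, so the motif did not separate Ebp from the genes that were lower. The letters TCACNCCAC were found for Hmgcs1 alone among the 30 members, and in 1.24% of all windows and 1.44% of genes. Looser forms of this element were not searched. CACGTG was found for Hsd17b7, Sc5d, Dhcr7, Scap, Insig1 and Abca1, and in 7.15% of all windows and 8.09% of genes. A strict LXR repeat, AGGTNA and NGGTCA with 4 bases between them, was found for no member, in 0.088% of all windows and in 0.096% of genes. A match is a description of the letters in this window, and the binding of no factor was measured.

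Genes of cholesterol synthesis were lower as a block on the array labelled Venus-Mkx. Of 17 measured synthesis genes, 15 were at least 2-fold lower than both controls, 0 were higher and 2, Mvd and Ebp, were neither, whereas 5.34% of all 11169 measured genes were lower by this rule. The median log2 difference of the 17 was −1.85 from Venus and −1.54 from C3H10T1/2, and the median of all measured genes was 0.00 against either control. The measured synthesis genes are mostly bright. Among genes whose highest value reached the 75th percentile of all values, 7.15, 14 of 15 synthesis genes were lower, against 5.99% of 7593 genes. A gene could reach this level through the controls alone, as Mvk, Pmvk and Dhcr7 did. The level is thus tied to the call, and this share is a description only.

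The mevalonate and isoprenoid steps opened the pathway, and 5 of their 6 measured genes were lower. Hmgcs1, which makes the HMG-CoA that feeds mevalonate synthesis, had log2 values of 11.58 in C3H10T1/2, 12.11 in Venus and 10.18 with Venus-Mkx. Mvk, mevalonate kinase, read 7.41, 7.50 and 6.38 in the same order. Both control values lay above that of Venus-Mkx for each gene, 3.81-fold in Venus for Hmgcs1 and 2.18-fold for Mvk. The probe sets of Hmgcs1 differed from Venus by −2.36 to −1.38. Of these, 1433444_at and 1433445_x_at fell short of 2-fold against C3H10T1/2. Pmvk, phosphomevalonate kinase, read 8.48 in C3H10T1/2, 8.75 in Venus and 6.83 with Venus-Mkx. Mvd, the decarboxylase that makes isopentenyl diphosphate, read 6.74, 6.88 and 6.26, −0.62 relative to Venus and −0.48 relative to C3H10T1/2 on the log2 scale, and so was within 2-fold. Idi1, which interconverts the isoprenoid building blocks, and Fdps, which joins them into farnesyl diphosphate, had the largest differences of the whole pathway by the probe sets used. Idi1 read 10.83 in C3H10T1/2, 11.01 in Venus and 8.30 with Venus-Mkx, 6.55-fold lower than in Venus. For Fdps the log2 values were 10.58, 10.87 and 7.40, 11.1-fold lower than in Venus and 9.04-fold lower than in C3H10T1/2. By this difference from Venus, Fdps was number 60 from the bottom of 11169 measured genes. With the probe sets of each gene averaged, Fdps differed from Venus by −1.70, since its other probe set lay below the floor, and Idi1 by −2.84, so the rank and fold of Fdps rest on 1 probe set.

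All 3 genes of the steps from farnesyl diphosphate to lanosterol were lower. Fdft1, squalene synthase, which commits the pathway to sterols, read 10.60 in C3H10T1/2, 10.88 in Venus and 8.97 with Venus-Mkx. Sqle, squalene epoxidase, read 10.47, 10.60 and 8.76. Lss, lanosterol synthase, read 8.70, 8.94 and 7.62, which is −1.32 against Venus and −1.09 against C3H10T1/2 on the log2 scale. Its other probe sets, 1426913_at and 1420014_at, differed from Venus by −0.38 and −0.20, less than 2-fold, so the call on Lss rests on 1 probe set.

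Of 8 measured genes between lanosterol and cholesterol, 7 were lower and Ebp was not. Cyp51, the lanosterol demethylase, read 9.88 in C3H10T1/2, 10.09 in Venus and 8.27 with Venus-Mkx. Tm7sf2, a sterol reductase, read 6.06, 6.67 and 4.55, close to the floor with Venus-Mkx. Msmo1, the methylsterol monooxygenase, had the largest difference of these late steps, with values of 10.56, 10.84 and 8.23, 6.12-fold below Venus. Nsdhl and Hsd17b7 remove and reduce groups in the same demethylation. Nsdhl read 9.23, 9.54 and 7.69, and Hsd17b7 read 9.14, 9.20 and 7.82. Sc5d, a sterol desaturase, read 9.63, 9.79 and 7.57, and Dhcr7, a reductase that makes cholesterol itself, read 7.42, 7.63 and 6.15. Ebp, a sterol isomerase in the middle of these steps, read 9.67 in C3H10T1/2, 9.77 in Venus and 10.35 with Venus-Mkx, which is 0.58 above Venus and 0.68 above C3H10T1/2 on the log2 scale. It was the one measured synthesis gene that lay above both controls.

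**Figure D1:**
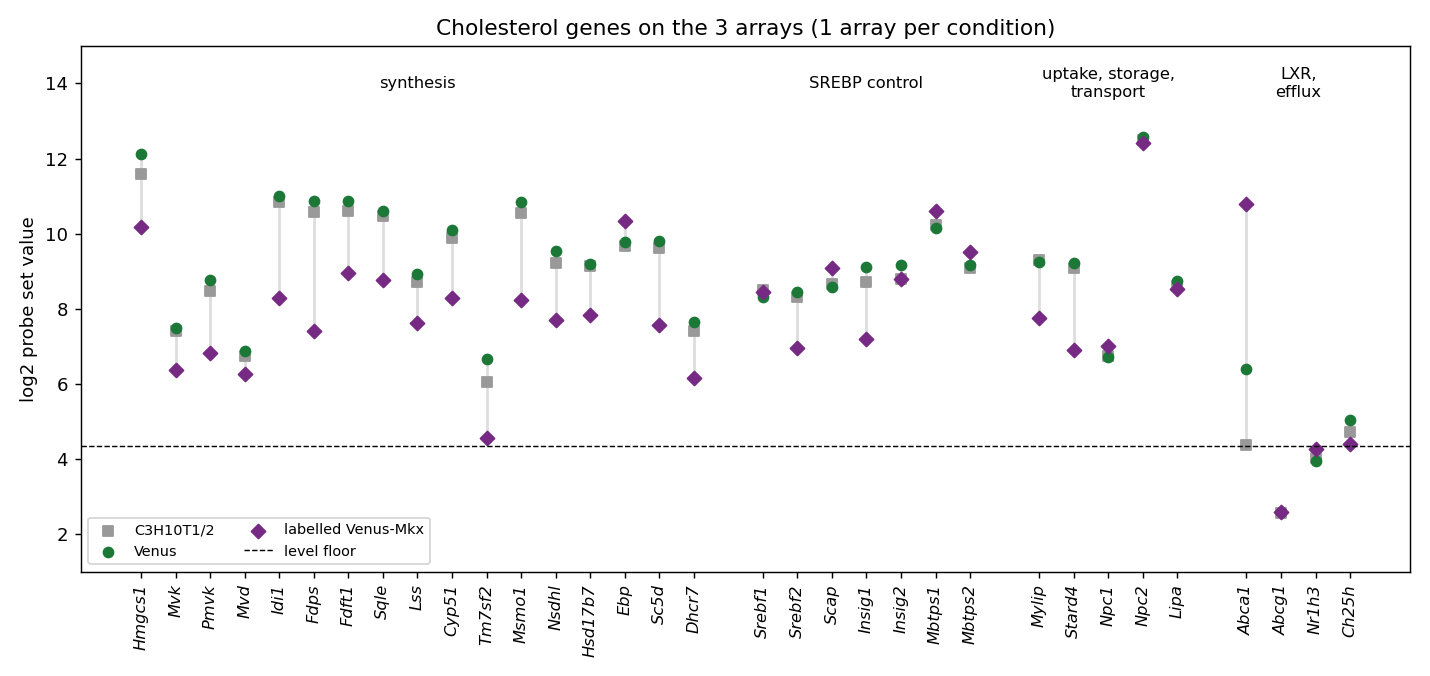
Log2 probe set values of the 33 members with a probe set on the array of C3H10T1/2 (squares), of Venus (circles) and labelled Venus-Mkx (diamonds), 1 array per condition; the dashed line is the level floor of 4.34. The diamonds lie below both other symbols for 16 of 17 synthesis genes and far above them for Abca1.

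The stages of the pathway had much the same medians. The log2 difference from Venus had a median of −1.93 over the 6 genes up to farnesyl diphosphate, of −1.84 over the 3 genes up to lanosterol and of −1.83 over the 8 genes after it. Within each stage the genes ran over a wider range, from −3.47 to −0.62 in the first and from −2.61 to 0.58 in the last.

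**Figure D2:**
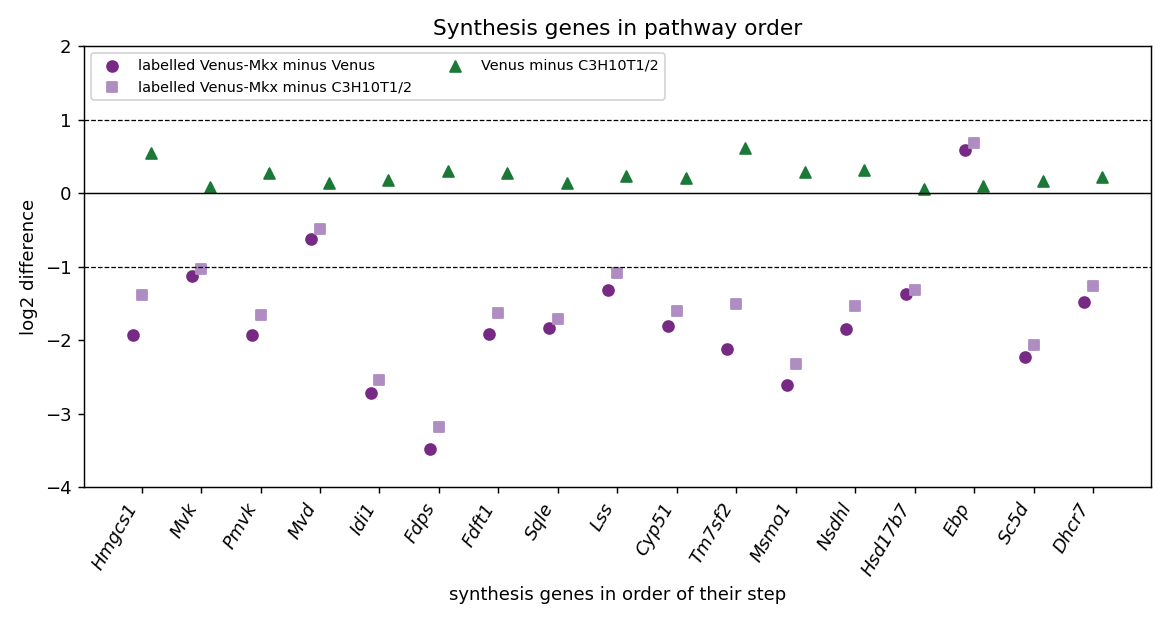
Log2 differences between arrays for the 17 measured synthesis genes, in the order of their steps, with 1 array per condition; dashed lines mark 2-fold. Differences of the array labelled Venus-Mkx from Venus (circles) and from C3H10T1/2 (squares) lie below −1 for 15 genes, and differences of Venus from C3H10T1/2 (triangles) lie above 0 for all 17.

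Most other probe sets of the synthesis genes gave like readings. Of their 38 probe sets, 33 reached the floor, 32 of these were below both controls and 26 were at least 2-fold lower than both, against 5.45% of 20206 measured probe sets on the arrays. Several measured probe sets were held by 10 of the 17 genes. The 5 probe sets that stayed below the floor, 1 each of Fdps, Hsd17b7 and Sc5d and 2 of Fdft1, differed from Venus by −0.22 to 0.14.

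**Figure D3:**
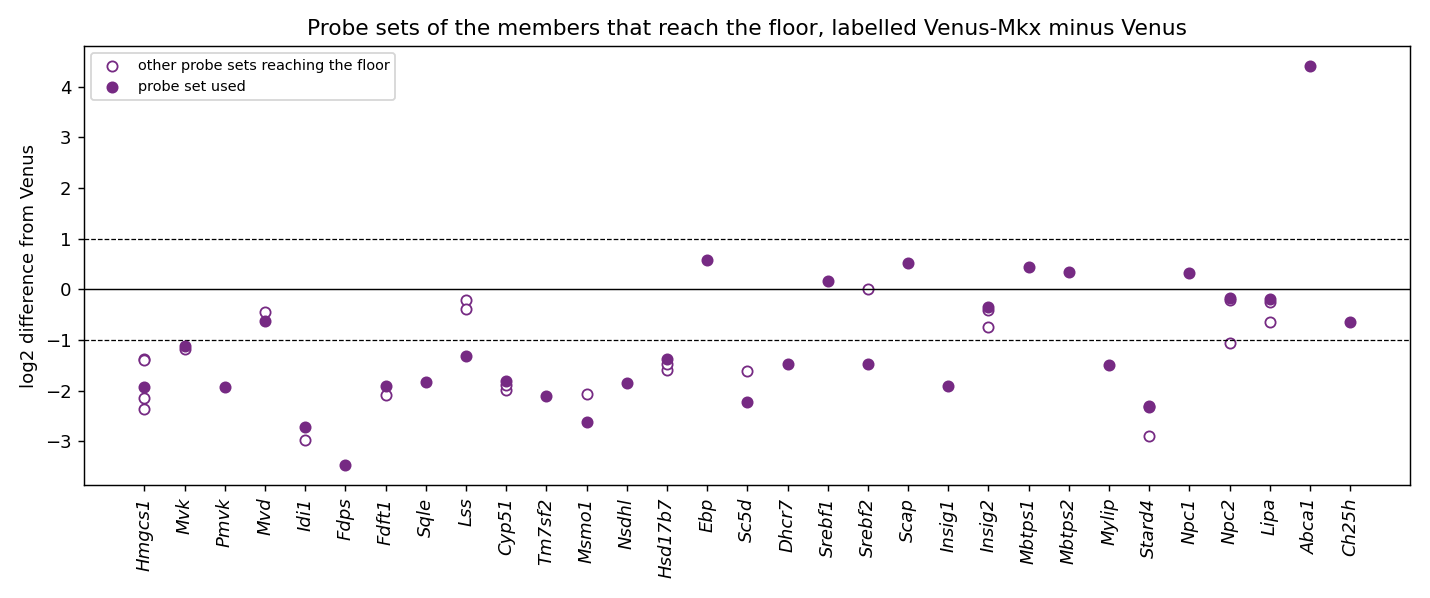
Log2 difference of the array labelled Venus-Mkx from Venus for the probe sets of 31 measured members that reached the floor; filled circles are the probe sets used for the gene, open circles the others, and dashed lines mark 2-fold. Open and filled circles lie together for most synthesis genes. They lie apart for Lss, Srebf2 and Npc2, and those of Hmgcs1 run from −2.36 to −1.38.

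In Venus, by contrast, synthesis genes read slightly above C3H10T1/2. All 17 measured synthesis genes lay above 0 in this comparison. Their log2 differences ran from 0.058 for Hsd17b7 to 0.61 for Tm7sf2, with a median of 0.21, and none reached 2-fold. Of all 11169 measured genes 44.7% lay above 0, 4996 against 4404 below, and the others were equal on both arrays. Hmgcs1, at 0.54, came next after Tm7sf2. Of the 14 other measured members, 9 lay above 0. The differences of the array labelled Venus-Mkx from Venus share the Venus array with this comparison, so the larger drop seen against Venus than against C3H10T1/2, in 16 of 17 synthesis genes, is the same reading seen from the other side.

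Genes of SREBP control did not move together on the array labelled Venus-Mkx. Of 7 measured genes, 2, Srebf2 and Insig1, were at least 2-fold lower than both controls, 0 were higher and 5 were neither, against 5.34% lower and 6.82% higher over all measured genes, and the median log2 difference was 0.15 from Venus. Srebf2 read 8.33 in C3H10T1/2, 8.44 in Venus and 6.97 with Venus-Mkx, 2.77-fold lower than in Venus. Its other probe set, 1452174_at, held an equal value of 7.36 on all 3 arrays, as 24.6% of all probe sets did, so the call on Srebf2 rests on 1 probe set. Insig1, which retains Scap in the endoplasmic reticulum and is itself a known SREBP target, read 8.71, 9.10 and 7.19, 3.76-fold lower than in Venus.

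The partner genes of these differed from them. Srebf1, which encodes the SREBP forms that favour fatty acid genes, read 8.49 in C3H10T1/2, 8.30 in Venus and 8.46 with Venus-Mkx, within 0.19 of one another. Insig2, the second Insig gene, read 8.81, 9.16 and 8.80, level with C3H10T1/2 and 0.36 below Venus. Scap read 8.66, 8.57 and 9.09, and so lay above both controls by 0.53 and 0.44. The protease genes Mbtps1 and Mbtps2 lay above Venus by 0.44 and 0.34, again less than 2-fold.

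Among genes of uptake, storage and transport, 2 of 5 measured genes were lower, against 5.34% of all measured genes, and 3 were neither. Stard4, a soluble carrier of sterols between membranes and a known SREBP target, read 9.09 in C3H10T1/2, 9.22 in Venus and 6.89 with Venus-Mkx, 5.01-fold lower than in Venus. Its other probe sets, 1455011_at and 1429239_a_at, differed from Venus by −2.30 and −2.91, so all 3 were lower. Mylip read 9.29, 9.26 and 7.76, 2.82-fold lower than in Venus. The lysosomal genes stayed within 2-fold: Npc1, a membrane protein that exports cholesterol from lysosomes, differed from Venus by 0.32, its soluble partner Npc2 by −0.17 and Lipa, the lysosomal acid lipase that frees cholesterol from its esters, by −0.20. A further probe set of Npc2, 1455768_at, gave −1.07 against Venus and −0.97 against C3H10T1/2. The median log2 difference of the 5 genes was −0.20 from Venus.

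Abca1, the exporter that loads cholesterol onto apolipoproteins, was the one member counted as higher, against 6.82% of all measured genes. Its probe set 1421840_at had log2 values of 4.38 in C3H10T1/2, 6.39 in Venus and 10.80 with Venus-Mkx. C3H10T1/2 lay at the floor, Venus 4.03-fold above it and Venus-Mkx 21.3-fold above Venus. Against C3H10T1/2 the ratio of Venus-Mkx was 85.7. The C3H10T1/2 value lay only just above the floor, so neither the ratio of 4.03 nor that of 85.7 is exact. By its difference from Venus, Abca1 was number 49 from the top of 11169 measured genes. Its other probe sets, 1421839_at and 1450392_at, stayed under the floor throughout, with differences of 1.43 and 0.071 from Venus, so the call rests on 1 probe set.

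Abca1 was also the one member at least 2-fold higher in Venus than in C3H10T1/2, as 1.49% of all measured genes were, and this call rests on the C3H10T1/2 value at the floor. No member was at least 2-fold lower there, against 0.555% of all measured genes.

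The other LXR and efflux genes with a probe set read low, Abcg1 and Nr1h3 below the floor on every array and Ch25h just above it. Abcg1, the exporter to lipoprotein particles, read 2.57 in C3H10T1/2, 2.58 in Venus and 2.58 with Venus-Mkx. Nr1h3, which encodes LXRα, read 4.04, 3.94 and 4.26. For neither of these can a difference be read. Ch25h, which encodes an enzyme that makes an oxysterol and is a known interferon target, read 4.72, 5.03 and 4.39, close to the floor on each array, with a log2 difference of −0.64 from Venus. With 2 of 5 genes measured, the median log2 difference of this group, 1.88, is the midpoint of Abca1 and Ch25h and stands for neither.

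**Figure D4:**
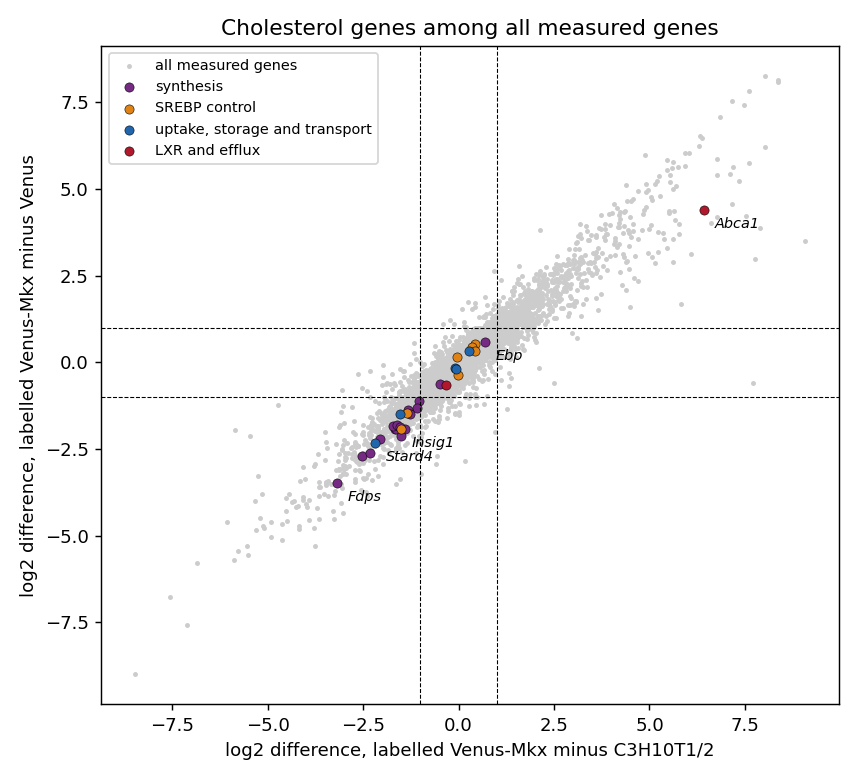
Log2 difference of the array labelled Venus-Mkx from C3H10T1/2 (horizontal) and from Venus (vertical) for 11169 measured genes (grey) and the 31 measured members by group (coloured); dashed lines mark 2-fold. Of the members, 19 lie in the lower left corner, 1, Abca1, lies in the upper right, and 11 lie in neither.

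Markers of other cell types were read beside these results. Of 8 macrophage markers, 5, among them Ptprc, Adgre1 and Cd68, were below the floor on all 3 arrays. Csf1r and Lyz2, however, were counted as higher, Lyz2 with log2 values of 4.39 in C3H10T1/2, 5.14 in Venus and 7.30 with Venus-Mkx, the same order as Abca1. Cd14, the remaining measured marker, read 6.62, 6.99 and 6.49 and was neither higher nor lower. The summed linear level of the 8 markers was 177, 241 and 381 in that order. Of 5 adipocyte markers with a probe set, Adipoq, Cidec and Lep were below the floor on all arrays, Pparg differed from Venus by −0.59, and Fabp4 read 7.38, 7.04 and 2.28. Their summed linear level was 374, 359 and 161. Of 6 endothelial markers, 5 were below the floor and Tek was higher than both controls. Of 6 epithelial markers, 5 were below the floor and Epcam was neither higher nor lower, and the summed linear levels of these lists were 59.0, 51.0 and 97.9 and 159, 186 and 246. All 19 measured interferon response genes were counted as higher, against 6.82% of all measured genes, with a median log2 difference of 3.29 from Venus. In Venus against C3H10T1/2, 18 of the 19 lay above 0, and the median of the 19 was 1.77. Of all measured genes 44.7% lay above 0, 4996 against 4404 below. The part of these readings in the differences of the cholesterol genes was not tested.

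Other targets of SREBP were read beside the members. Of 13 genes, mostly of fatty acid synthesis, 4 were at least 2-fold lower than both controls, against 5.34% of all measured genes, 0 were higher and 9 were neither, and their median log2 difference from Venus was −0.73. Scd1, a fatty acid desaturase, read 9.66 in C3H10T1/2, 9.67 in Venus and 6.19 with Venus-Mkx. Elovl6, an elongase, differed from Venus by −1.80, and the desaturases Fads1 and Fads2 differed by −1.95 and −1.75. Fasn, fatty acid synthase, differed by −0.73, Acly, which makes acetyl-CoA for both pathways, by −0.94, and Acsl3 by 0.063. In Venus against C3H10T1/2, 10 of the 13 lay above 0.

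Further genes linked to LXR were read as well. Of 7 measured genes of this list, Smpdl3a, a known LXR target, and Rxrb, which encodes a partner receptor of LXR, were higher by at least 2-fold than either control, against 6.82% of all measured genes, 0 were lower and 5 were neither. The median log2 difference of the 7 was 0.49 from Venus and 0.29 from C3H10T1/2. Smpdl3a read 6.77 in C3H10T1/2, 7.28 in Venus and 8.38 with Venus-Mkx, again in the order seen for Abca1. Rxrb read 8.35, 8.29 and 9.48. Pltp and Lpcat3, further known LXR targets, differed from Venus by 0.49 and −0.028. Abca7 lay 1.14 above Venus and 0.90 above C3H10T1/2 on the log2 scale, and so was neither. On the whole list 6 genes lay above Venus and 1 below it. Of the 7 genes, Smpdl3a alone had the order seen for Abca1. Mylip, named above as switched on by LXR, was 2.82-fold lower than in Venus.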

How the data were processed

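Total RNA of 3 samples was labelled with biotin and hybridized to 1 Affymetrix mouse genome array each. The authors deposited log2 probe set values for 45101 probe sets, normalized over the arrays together; the processing notes name RMA without a version and the methods name MAS 5.0, which gives linear values, so the values were read as log2 and used unchanged. No detection calls were used. Control probe sets (64) were left out, and 34945 probe sets carried 1 symbol in the platform annotation, 932 several and 9160 no symbol. Each gene was represented by its probe set of highest mean value. The floor was the median of all values. No test was run. Members, lists and the naming rule (all members; array values for those at least 1.5-fold from both controls, at least 2-fold apart between the controls, or at the extremes of their group; probe sets over 1 apart on the log2 scale or of opposite sign; other listed pathway genes at least 2-fold from both controls) were chosen with earlier results of these data known. Values of other probe sets of Stard4 and Npc2 and of listed genes under 2-fold were added after they were seen. The counting step was tested on simulated data. Alternatives covered floor, probe sets, scaling, control and fold. The number of arrays limits precision. Python 3.11.15, NumPy 2.4.6, pandas 2.3.3 and matplotlib 3.10.9 were used.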

Additional observations from a re-analysis of the deposited data

How the results depend on the processing

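No paired analysis was possible because each condition has 1 array and the labels carry no replicate numbers. Without replicates, a median was taken to have moved when it changed by more than 0.34, the SD of the log2 differences between the control arrays over measured genes. A count was taken to have moved when it changed by more than 1.5 times. Of 79 values of the counts and group medians recomputed under another setting, 70 did not move by these rules. Among the 70 were counts that lost up to 3 calls. The SD describes single genes, not medians. With no floor, 1 control alone, the mean of the controls or 1.5-fold, no call could be lost. Those settings therefore do not test the calls. At 3-fold, 9 members were lower than both controls in place of 19, and 10 of the 20 calls were kept. With the probe sets of each gene averaged, Fdft1, Lss and Srebf2 lost their call, and 0 members were higher in Venus than in C3H10T1/2 in place of 1, since Abca1 then took in probe sets below the floor. At 1.5-fold, 2 were. The median of the LXR and efflux genes, which rests on 2 genes, was 0.16 with no floor, 0.66 with probe sets averaged, 2.46 against the mean of the controls, 3.04 against C3H10T1/2 and 4.41 with the floor at the 75th percentile, where Abca1 alone was left. The median of the uptake, storage and transport genes was −0.85 with the floor at the 75th percentile. Tm7sf2 lost its call at that floor and Lss without probe sets marked _x_at or _s_at. With the measured probe set of smallest difference from Venus, a setting chosen after seeing the data, Hmgcs1, Lss and Srebf2 lost theirs. Centring the arrays or quantile normalization kept all 20 calls. No called gene changed sign under the settings run, apart from Srebf2, which was at 0.00 with the probe set of smallest difference.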

Other observations

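Genes that use isoprenoids for other ends differed little on the array labelled Venus-Mkx, unlike the synthesis genes that supply them. Of 13 measured genes of prenylation, dolichol and ubiquinone synthesis and neighbouring steps, Acat1, a mitochondrial thiolase, was higher, 0 were lower and 12 were neither, and their median log2 difference from Venus was 0.00. Over all measured genes 6.82% were higher and 5.34% lower, the shares to set beside the counts of this and the following lists. None of 8 measured genes of sterol-regulated protein degradation was higher or lower, with a median of −0.020, 3 of them above Venus and 4 below it. Paqr3 fell just short of the call, with log2 differences of −0.99 from Venus and −1.50 from C3H10T1/2. Its value with Venus-Mkx lay below the floor. Of 17 further measured genes of lipoprotein uptake and sterol transport, Osbpl2, an oxysterol-binding protein gene, was higher with a log2 difference of 1.28 from Venus, and Lrp8, a lipoprotein receptor gene, and Gramd1c, a sterol transfer protein gene, were lower with −2.15 and −1.19. Of 14 measured cell cycle genes, Mcm3 was lower, with −1.47, and 13 were neither. The median of the list was −0.23, with 13 genes below Venus and 0 above it. Over all 11169 measured genes, 5115 lay below Venus and 4777 above it. Of 3 measured genes of oxysterol and bile acid synthesis none was higher or lower, and Cyp39a1, an oxysterol hydroxylase gene, lay 0.96 above C3H10T1/2 in Venus and 1.13 above it on the array labelled Venus-Mkx.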
